A study of Homo sapiens with 12 samples.

Results

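Receptor tyrosine kinases outside the ERBB family were followed by RNA level in 3 ovarian cell lines, as 49 genes taken by name and found among the 61533 genes of the deposited tables. The rule is by name and uses no measured level, although earlier results of these data were known when it was set, and all 49 genes were matched by symbol. PEO-4 and SKOV-3 are ovarian carcinoma lines and T1074 is a line of ovarian epithelial cells immortalized with SV40, each sequenced as total RNA in 4 libraries, so that 12 libraries were compared. The labels call PEO-4 an ovarian cystadenocarcinoma and SKOV-3 an ovarian serous cystadenocarcinoma, whereas the study describes PEO-4 as high-grade serous and SKOV-3 as clear cell carcinoma. All 3 lines are labelled wild type, and no treatment is labelled. Each was grown in a medium of its own (RPMI 1640 for PEO-4, McCoy's 5A for SKOV-3, Prigrow I for T1074), so that line and medium cannot be told apart. Each group is 1 cell line, so a difference below is one between these lines.

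A receptor tyrosine kinase spans the cell membrane, binds a ligand outside the cell and, once paired with a second receptor, phosphorylates tyrosines on itself and on its substrates inside. Adaptors such as GRB2 and SHC1 dock on those tyrosines and pass the signal to the RAS, PI3K and PLC-gamma pathways, while phosphatases and CBL ubiquitin ligases end it. Families differ in ligand: growth factors bind the insulin, PDGF, VEGF, FGF and MET families, ephrins on neighbouring cells bind the EPH receptors, GAS6 and protein S bind the TAM receptors, collagen binds the DDR receptors, and WNT proteins bind the ROR, RYK and PTK7 group. In ovarian epithelium and its carcinomas AXL, MET, IGF1R and EPHA2 are among the receptors most studied, PDGFRA, PDGFRB and DDR2 are known from mesenchymal cells, and TEK and TIE1 from endothelium.

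The total expected count, the number of fragments assigned to genes, lay between 38690954 and 47148161 in PEO-4 libraries, between 47340136 and 55739060 in those of SKOV-3 and between 19780836 and 38583368 in those of T1074. The lowest total belonged to T1074 replicate 1. In PEO-4 the libraries fell into pairs: replicates 1 and 4 were both above or both below replicates 2 and 3 for 61.3% of the 14727 genes with a mean of at least 1 CPM (the count scaled to a common library total), and for 24 of the 31 receptors at that level. The other pairings of PEO-4 libraries did so for 18.4% and 20.3% of genes. No label gives a reason for this, and its part in the results was not tested. The 6 epithelial markers examined were not all present in T1074. The keratin genes KRT8 (358 to 1036 CPM), KRT18 (208 to 555 CPM) and KRT7 (90.0 to 229 CPM) were present in T1074. EPCAM (0.0497 to 0.137 CPM) and CDH1 (0.274 to 0.452 CPM) were near 0 there, against 158 to 168 and 135 to 157 CPM in PEO-4. Of the 6, 4 were higher and 0 lower in PEO-4 than in T1074, and 4 were higher and 1 lower in SKOV-3 than in T1074. Of 7 fibroblast and mesenchymal markers, 6 were lower and 1 higher in PEO-4 than in T1074, and 5 were lower and 2 higher in SKOV-3 than in T1074. Of all genes tested, 36.3% were higher and 37.8% lower in PEO-4 than in T1074. The shares were 33.3% and 34.5% in SKOV-3 against T1074. COL1A1, a chain of fibrillar collagen, had 0.351 to 1.38 CPM in PEO-4, 6.15 to 31.2 CPM in SKOV-3 and 165 to 787 CPM in T1074. VIM, the intermediate filament of mesenchymal cells, had 0.0888 to 0.146 CPM in PEO-4, 983 to 2435 CPM in SKOV-3 and 459 to 806 CPM in T1074.

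Sequences are shown for the places where form or start site bears on the results. FGFR3 is made with either of a pair of exons that encode part of the third immunoglobulin-like domain and set which FGF ligands bind. The IIIb form is typical of epithelium and the IIIc form of mesenchyme. INSR is made with or without exon 11, and the form without it binds IGF2 more strongly. Coordinates are of hg38, sequences run from 5′ to 3′ of the gene's strand, and lower case is used for exons throughout. The IIIb exon, exon 8 of transcript FGFR3-202, lies at chr4:1802914-1803064 on the plus strand, the IIIc exon, exon 8 of FGFR3-205, at chr4:1803692-1803836 on the plus strand, and exon 11 of INSR at chr19:7150497-7150532 on the minus strand.
FGFR3 IIIb exon: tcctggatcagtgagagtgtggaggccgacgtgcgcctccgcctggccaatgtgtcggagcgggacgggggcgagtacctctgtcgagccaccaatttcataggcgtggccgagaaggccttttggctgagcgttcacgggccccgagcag
FGFR3 IIIc exon: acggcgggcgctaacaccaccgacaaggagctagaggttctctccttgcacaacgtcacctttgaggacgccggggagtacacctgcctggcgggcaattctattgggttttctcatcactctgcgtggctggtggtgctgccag
INSR exon 11: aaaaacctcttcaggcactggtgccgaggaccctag
The 250 bases before a start site are shown for EPHA1, MST1R and TEK, genes that were high in PEO-4 alone, in both carcinoma lines and in T1074 alone. They were taken from RefSeq (GRCh38.p14) at chr7:143408857-143409106 (minus strand), chr3:49903874-49904123 (minus strand) and chr9:27108975-27109224 (plus strand). Capitals mark CAGGTG, a form of the E-box, which SNAI and ZEB repressors are known to bind. TEK has a further window, not printed, which also lacks it. Any part of these letters in the levels was not tested.
EPHA1 promoter: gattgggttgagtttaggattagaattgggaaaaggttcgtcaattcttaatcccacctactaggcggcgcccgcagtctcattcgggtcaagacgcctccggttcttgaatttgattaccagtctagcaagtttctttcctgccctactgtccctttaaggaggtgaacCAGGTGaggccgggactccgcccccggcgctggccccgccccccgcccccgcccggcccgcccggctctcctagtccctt
MST1R promoter: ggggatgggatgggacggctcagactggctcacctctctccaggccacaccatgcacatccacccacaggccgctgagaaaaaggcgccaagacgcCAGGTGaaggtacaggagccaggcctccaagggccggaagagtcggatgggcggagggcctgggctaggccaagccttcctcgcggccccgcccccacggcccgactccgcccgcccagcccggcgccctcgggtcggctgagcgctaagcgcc
TEK promoter: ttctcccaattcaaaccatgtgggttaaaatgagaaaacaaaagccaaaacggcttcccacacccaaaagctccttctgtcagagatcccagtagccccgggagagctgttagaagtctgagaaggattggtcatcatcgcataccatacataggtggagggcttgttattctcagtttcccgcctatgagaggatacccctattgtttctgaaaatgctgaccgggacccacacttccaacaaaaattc

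Similar numbers of receptors reached 1 CPM in each line, and different ones led. At a mean of at least 1 CPM there were 31 receptors in PEO-4, 30 in SKOV-3 and 29 in T1074. Levels of different genes were compared as TPM, which divides by transcript length. By TPM the numbers were less alike, with 18, 19 and 22 receptors at a mean of at least 1 TPM in the same order. At a mean of at least 10 TPM there were 2, 5 and 8. DDR1, a collagen receptor of epithelia, led in PEO-4 with 30.5 ± 5.76 TPM (SD, n = 4) and took 28.0% of the summed TPM of the 49 genes, followed by RYK (10.2 ± 1.46), IGF1R (9.66 ± 0.761) and MET (8.95 ± 1.12), which lay within their spreads of each other. AXL had the highest mean in SKOV-3, with 26.4 ± 8.57 TPM, and in T1074, with 54.4 ± 10.9 TPM. In SKOV-3 replicate 4 it had 15.6 TPM, below RYK (16.9 TPM) and PTK7 (16.0 TPM). Behind it in SKOV-3 came PTK7 (20.0 ± 3.36), RYK (18.5 ± 2.77) and MET (14.7 ± 2.66), and in T1074 PTK7 (29.8 ± 9.31), DDR2 (29.2 ± 12) and RYK (23.1 ± 5.20), neighbours that overlapped in both lines. AXL took 0.455% of the receptor TPM in PEO-4, 17.6% in SKOV-3 and 21.4% in T1074. The summed level of the 49 genes lay between 87.1 and 123 TPM in PEO-4, between 116 and 174 TPM in SKOV-3 and between 221 and 316 TPM in T1074, so that the T1074 libraries were above all libraries of the carcinoma lines. Summed as CPM, which does not divide by length and uses scaling factors (TMM), the levels were closer. They lay between 1462 and 1673 in PEO-4, between 1509 and 2033 in SKOV-3 and between 2033 and 2570 in T1074. SKOV-3 replicate 1 and T1074 replicate 1 were level. TPM is a share of the whole library and carries no such factor. The non-coding RN7S genes held at least 18.4% of the expected count in every carcinoma library, and at most 23.4%. Their share by replicate of T1074 was 9.73%, 9.91%, 18.9% and 12.9%. The part of RN7S in the TPM differences between lines was not tested. In bulk libraries such as these, fewer cells that carry a transcript and less of it per cell cannot be told apart.

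**Figure D1:**
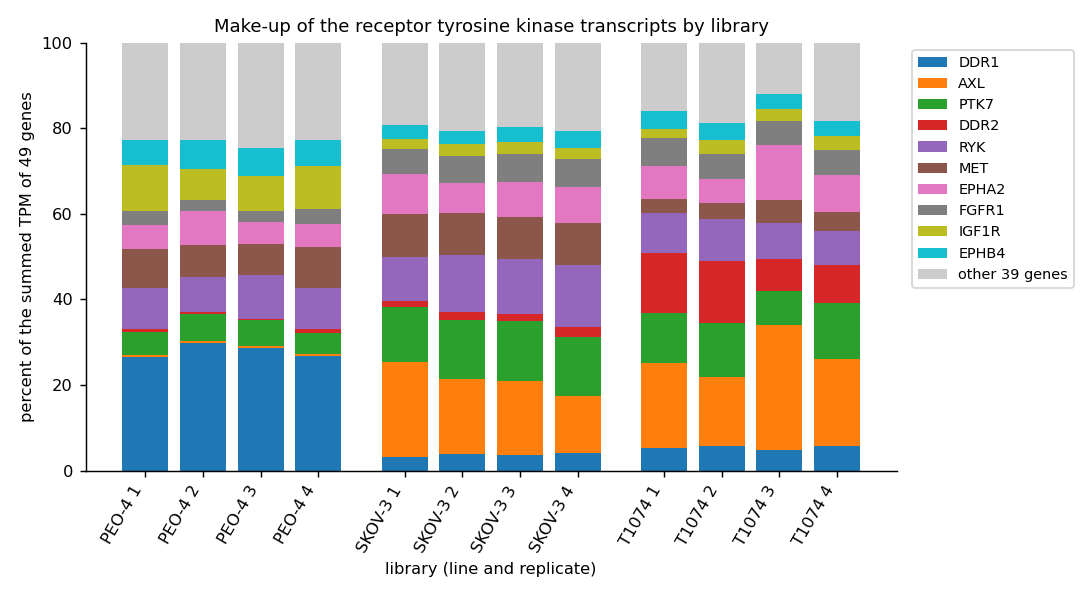
Share of the summed TPM of 49 receptor tyrosine kinase genes, in percent, taken by each of 10 named genes and by the other 39, a bar standing for 1 library (4 for PEO-4, 4 for SKOV-3, 4 for T1074). DDR1 is the largest part in PEO-4 (mean 28.0%), and AXL in SKOV-3 (17.6%) and T1074 (21.4%).

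**Figure D2:**
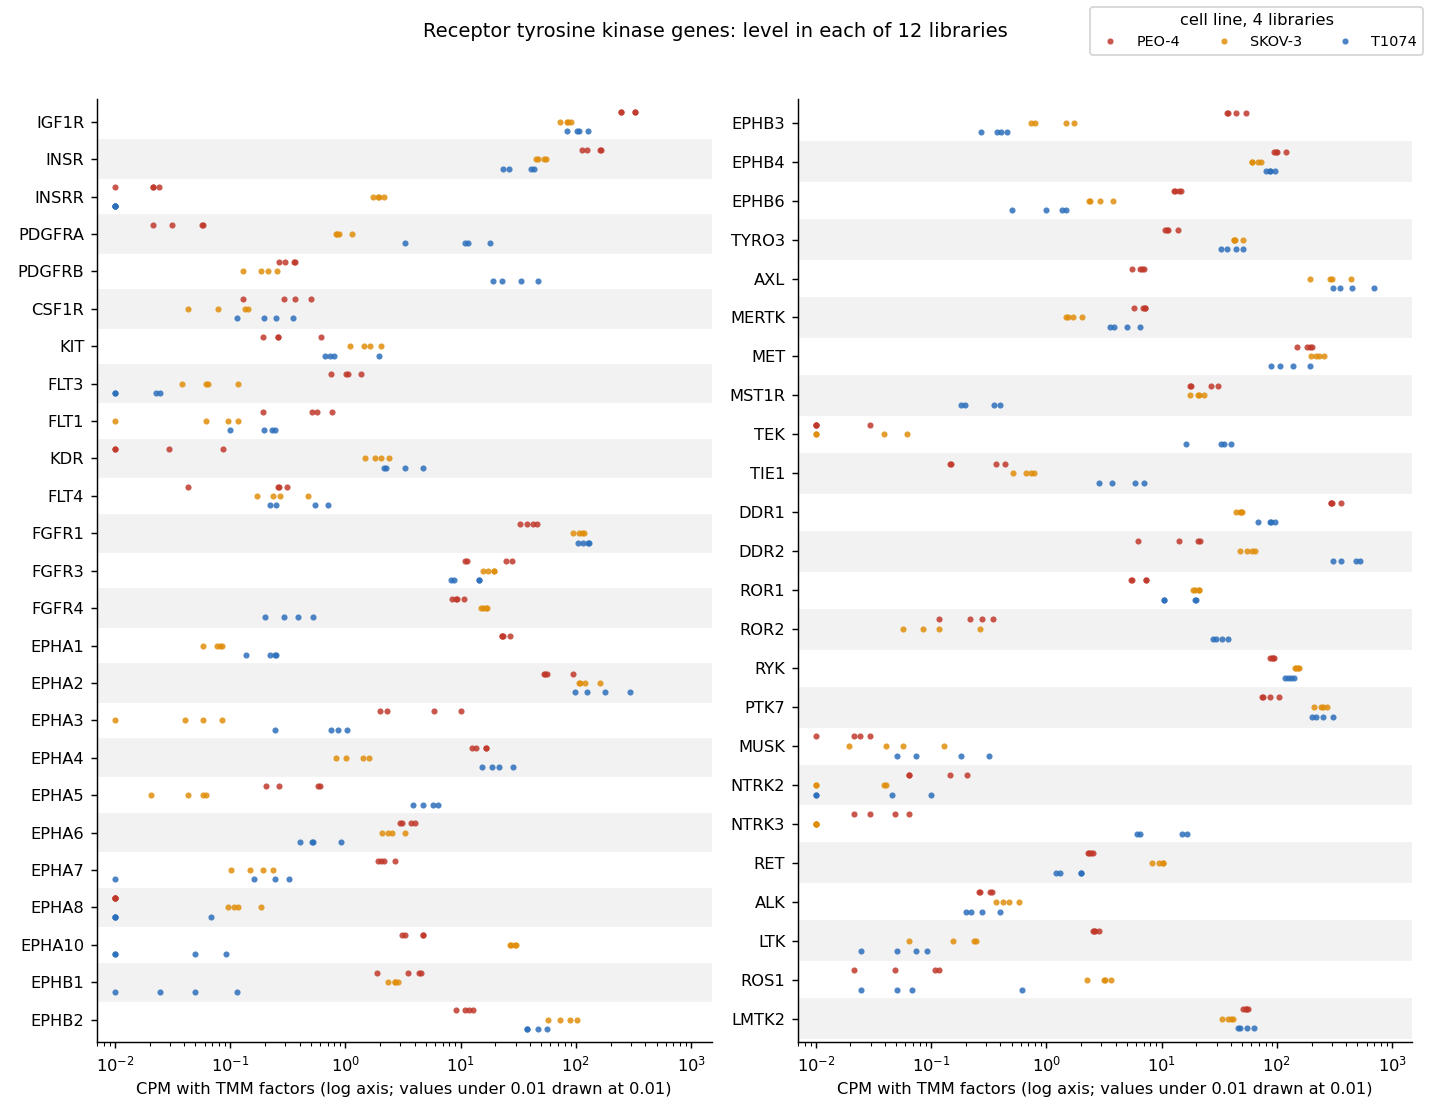
Level of each of the 49 genes in CPM with TMM factors on a log axis, with 1 point per library, 4 libraries per line, and values under 0.01 CPM drawn at 0.01. TEK, ROR2, PDGFRB and NTRK3 lie far to the right in T1074, EPHA1 and EPHB3 in PEO-4, and EPHA10 in SKOV-3.

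Of the 49 genes, 46 passed the filter on low counts. EPHA8 was at 0 in the 4 PEO-4 libraries, between 0.0961 and 0.184 CPM in SKOV-3 libraries and no higher than 0.0687 CPM in T1074. EPHA8 had 25 counts over the SKOV-3 libraries and 3 over T1074, a ratio of 6.06 with a 95% exact interval of 1.85 to 31.4. MUSK and NTRK2 stayed at or below 0.318 CPM in each library. MUSK had 3 counts over PEO-4, 12 over SKOV-3 and 25 over T1074, and NTRK2 had 19, 4 and 6 in the same order. Such intervals and the floors used below cover counting error only. All 19898 genes that passed entered the quasi-likelihood test of edgeR, and a difference was called at a Benjamini-Hochberg adjusted p under 0.05. Whether replicates came from separate cultures is not stated, and the p-values therefore rest on the spread of these libraries alone, which may be technical. In PEO-4 against T1074, 20 receptors were higher, 19 lower and 7 not past the threshold, so that 84.8% were called, beside 74.1% of all genes tested (36.3% higher and 37.8% lower). In SKOV-3 against T1074, 17 were higher, 17 lower and 12 not past it (73.9% called, beside 67.8% of all genes, 33.3% higher and 34.5% lower). With scaling by library size only, 14 receptors were higher and 22 lower in this comparison. That setting also moved the median log2 fold change of all genes, from -0.028 to -0.229. PEO-4 against SKOV-3 gave 18 higher, 18 lower and 10 not past it (78.3%, beside 75.2%, 38.5% higher and 36.7% lower). These shares were near the background. The median absolute log2 fold change was 2.29 in the receptors and 1.02 in all genes for PEO-4 against T1074, 1.45 and 0.843 for SKOV-3 against T1074, and 1.89 and 1.06 for PEO-4 against SKOV-3. At a log2 fold change of at least 1 in either direction, 16 receptors were higher and 17 lower in PEO-4 against T1074 (beside 49.4% of all genes in either direction, 25.2% higher and 24.2% lower), 12 and 13 in SKOV-3 against T1074 (41.5%, 19.6% higher and 22.0% lower), and 16 and 15 in PEO-4 against SKOV-3 (50.9%, 27.3% higher and 23.6% lower). The libraries of the lines did not overlap in 34 of the 46 receptors in PEO-4 against T1074 (beside 66.6% of all genes), in 31 in SKOV-3 against T1074 (60.3%) and in 37 in PEO-4 against SKOV-3 (75.7%). The comparisons with T1074 share its 4 libraries.

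**Figure D3:**
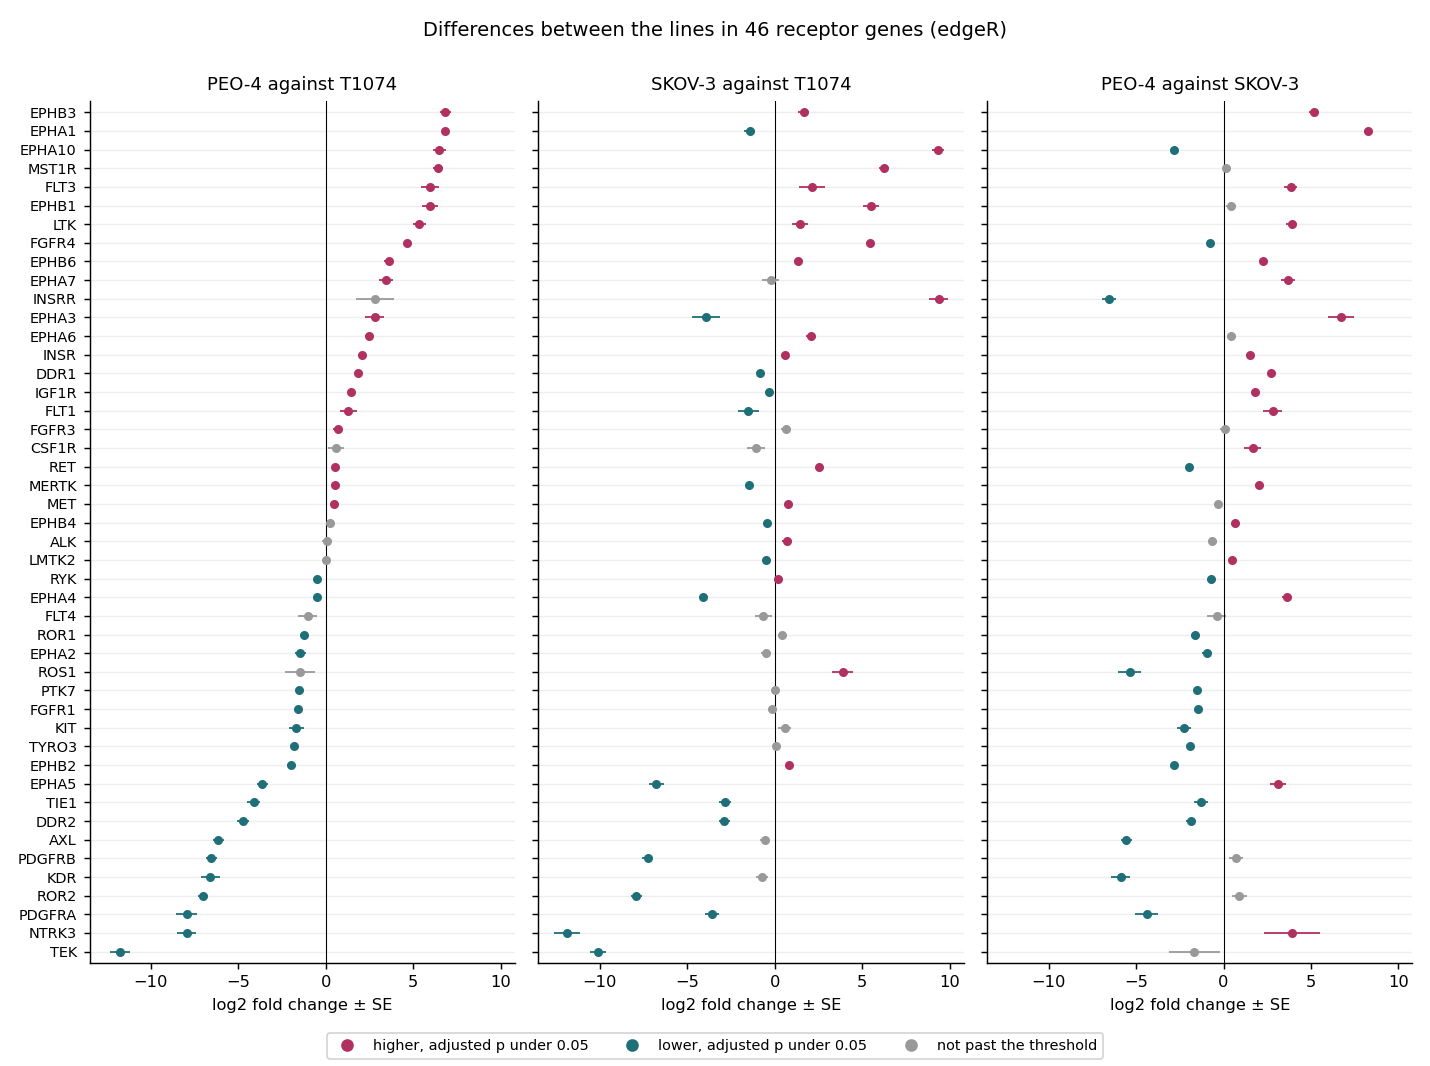
Log2 fold change with its standard error for the 46 tested receptors in PEO-4 against T1074, SKOV-3 against T1074 and PEO-4 against SKOV-3, ordered by the first comparison. Coloured points passed an adjusted p of 0.05 (edgeR), grey points did not. EPHB3, EPHA1 and EPHA10 are at the top in PEO-4 against T1074 and TEK, NTRK3 and PDGFRA at the bottom.

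By line, 12 receptors were higher in PEO-4 than in each of the other lines (IGF1R, INSR, FLT3, FLT1, EPHA1, EPHA3, EPHA7, EPHB3, EPHB6, MERTK, DDR1 and LTK), 7 in SKOV-3 (INSRR, FGFR4, EPHA10, EPHB2, RYK, RET and ROS1) and 9 in T1074 (PDGFRA, PDGFRB, EPHA4, EPHA5, TEK, TIE1, DDR2, ROR2 and NTRK3), with both comparisons past the threshold. These were 26.1%, 15.2% and 19.6% of the receptors tested, beside 24.7%, 19.8% and 20.3% of all genes tested that met the same pair of calls for PEO-4, SKOV-3 and T1074, shares near the background. By mean TPM, RYK, MERTK and FLT1 were instead highest in T1074. RYK had 23.1 TPM there and 18.5 in SKOV-3. MERTK had 0.69 TPM in T1074 and 0.54 in PEO-4, and FLT1 had 0.04 and 0.0275 in the same order. FLT4 passed the threshold in no comparison, with values between 0.0430 and 0.314 CPM in PEO-4, between 0.171 and 0.471 CPM in SKOV-3 and between 0.220 and 0.710 CPM in T1074.

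The TAM receptors are named for TYRO3, AXL and MERTK and clear dying cells or drive survival. AXL had 7.03, 6.76, 5.50 and 6.55 CPM in PEO-4, 443, 288, 298 and 192 in SKOV-3, and 354, 306, 702 and 447 in T1074. All PEO-4 libraries lay below all others, and SKOV-3 and T1074 overlapped. The log2 fold change was -6.13 ± 0.32 (adjusted p = 5.46e-10) in PEO-4 against T1074, -5.56 ± 0.31 (adjusted p = 1.19e-09) in PEO-4 against SKOV-3, and -0.57 ± 0.26 (adjusted p = 0.0637) in SKOV-3 against T1074, which missed the threshold. It passed the threshold under 4 of 21 alternative settings, with scaling by library size only and without SKOV-3 replicate 1, T1074 replicate 1 or T1074 replicate 2. TYRO3 had 10.6, 13.8, 11.4 and 11.2 CPM in PEO-4, 50.3, 42.5, 43.0 and 42.4 in SKOV-3, and 37.2, 51.3, 32.7 and 44.5 in T1074. Again PEO-4 stood apart below, with a log2 fold change of -1.82 ± 0.14 (adjusted p = 3.90e-08) against T1074 and -1.92 ± 0.14 (adjusted p = 2.20e-08) against SKOV-3. MERTK had 7.20, 5.74, 6.94 and 7.20 CPM in PEO-4, 2.03, 1.48, 1.69 and 1.54 in SKOV-3, and 5.02, 3.83, 6.49 and 3.56 in T1074, highest in PEO-4 and lowest in SKOV-3, and PEO-4 and T1074 overlapped. SKOV-3 was lower than T1074 (log2 fold change -1.48 ± 0.21, adjusted p = 1.71e-05) and PEO-4 higher than SKOV-3 (2.01 ± 0.21, adjusted p = 6.12e-07). PEO-4 was higher than T1074 by 0.52 ± 0.20 (adjusted p = 0.0269) on the log2 scale. The MERTK call between PEO-4 and T1074 was lost under 4 of 21 alternatives, among them leaving out T1074 replicate 2 or 4 (adjusted p = 0.0721 to 0.0815). The ligand GAS6 was highest in PEO-4, with 208 ± 16.3 CPM in PEO-4, 49.4 ± 4.66 in SKOV-3 and 70.2 ± 28.8 in T1074 (SD, n = 4 each), and was higher in PEO-4 than in T1074 (log2 fold change 1.57 ± 0.21, adjusted p = 7.85e-06). PROS1, which encodes protein S, was lower in PEO-4 (10.1 ± 0.897 CPM) than in T1074 (35.3 ± 13.6 CPM, log2 fold change -1.81 ± 0.22, adjusted p = 3.11e-06).

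Of the collagen receptors, DDR1 was highest in PEO-4 and DDR2 lowest there, and both were lower in SKOV-3 than in T1074. DDR1 had 298, 362, 297 and 299 CPM in PEO-4, 47.6, 49.5, 48.9 and 44.2 in SKOV-3, and 69.1, 86.9, 88.9 and 97.3 in T1074. The lines did not overlap, with PEO-4 on top and SKOV-3 at the bottom, and the log2 fold change was 1.87 ± 0.12 (adjusted p = 3.52e-09) in PEO-4 against T1074, -0.85 ± 0.12 (adjusted p = 1.38e-05) in SKOV-3 against T1074 and 2.72 ± 0.12 (adjusted p = 1.17e-10) in PEO-4 against SKOV-3. DDR2, which is typical of fibroblasts and binds fibrillar collagen, had 21.5, 14.1, 6.28 and 20.8 CPM in PEO-4, 47.5, 60.4, 54.8 and 65.2 in SKOV-3, and 483, 527, 309 and 360.2 in T1074. Here T1074 was on top and PEO-4 at the bottom, without overlap (log2 fold change -4.75 ± 0.34, adjusted p = 1.27e-08 in PEO-4 and -2.88 ± 0.31, adjusted p = 1.28e-06 in SKOV-3, each against T1074). The PEO-4 libraries spread from 6.28 to 21.5 CPM, with replicates 1 and 4 above replicates 2 and 3.

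In the insulin receptor family, IGF1R, the receptor of IGF1 and IGF2, had 327, 247, 245 and 324 CPM in PEO-4, 83.8, 86.0, 90.3 and 72.7 in SKOV-3, and 84.4, 102, 107 and 126 in T1074. The 4 PEO-4 libraries were above all others, and SKOV-3 and T1074 overlapped. IGF1R was higher in PEO-4 (log2 fold change 1.44 ± 0.14, adjusted p = 4.00e-07 against T1074 and 1.78 ± 0.14, adjusted p = 4.87e-08 against SKOV-3) and slightly lower in SKOV-3 than in T1074 (-0.34 ± 0.14, adjusted p = 0.0458). The IGF1R call between SKOV-3 and T1074 was lost under 15 of 21 alternatives, among them leaving out PEO-4 replicate 1, 2, 3 or 4, or SKOV-3 replicate 1, 2, 3 or 4, or T1074 replicate 2, 3 or 4 (adjusted p = 0.0547 to 0.158). INSR, the insulin receptor, had 164, 125, 113 and 163 CPM in PEO-4, 52.8, 54.9, 45.0 and 46.6 in SKOV-3, and 26.4, 43.1, 23.5 and 41.0 in T1074. The lines did not overlap, and PEO-4 was higher than T1074 by 2.07 ± 0.20 (adjusted p = 2.60e-07) on the log2 scale and SKOV-3 higher than T1074 by 0.57 ± 0.19 (adjusted p = 0.0157). The INSR difference between SKOV-3 and T1074 was lost with scaling by library size only (adjusted p = 0.137) and with length-scaled TPM (adjusted p = 0.18). By mean TPM, INSR was lower in SKOV-3 (2.16) than in T1074 (2.605). INSRR, the insulin receptor-related receptor known as an alkali sensor, had 0, 0.0241, 0.0215 and 0.0216 CPM in PEO-4, 1.73, 1.90, 2.18 and 1.97 in SKOV-3, and 0 in each library of T1074. SKOV-3 was at least 21.2-fold higher than T1074 against a floor of 3 counts per library. It had 3 counts in all over PEO-4, and SKOV-3 was 109-fold above PEO-4, with a 95% exact interval of 37.0 to 531. IGF1, a ligand of IGF1R, was measured in PEO-4 (1.47 ± 0.170 CPM) and was at 0 in each library of SKOV-3 and T1074, so that PEO-4 was at least 24.2-fold higher than SKOV-3 and at least 16.0-fold higher than T1074 against the same floor. IGF-binding proteins, which hold IGFs in the medium, differed widely: IGFBP3 had 3.13 ± 0.411 CPM in PEO-4, 381 ± 37.0 in SKOV-3 and 77.1 ± 29.3 in T1074, and IGFBP7 had 0.106 ± 0.0795, 333 ± 89.0 and 314 ± 145 CPM in the same order. IGFBP2 was higher in PEO-4 (63.3 ± 13.7 CPM) than in SKOV-3 (5.93 ± 1.28 CPM) or T1074 (17.1 ± 4.98 CPM), and so was IGFBP4 (165 ± 54.7 CPM in PEO-4, 4.11 ± 0.873 in SKOV-3 and 84.7 ± 35.1 in T1074), while IGFBP5 was lower in both carcinoma lines than in T1074 (log2 fold change -3.28 ± 0.64, adjusted p = 3.06e-04 in PEO-4 and -2.61 ± 0.62, adjusted p = 0.00174 in SKOV-3). IGF2R, which removes IGF2 without signalling, was highest in SKOV-3 (683 ± 90.9 CPM, against 241 ± 29.1 CPM in T1074, log2 fold change 1.5 ± 0.13, adjusted p = 1.38e-07).

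Among the EPHA receptors, which bind ephrin-A ligands tethered to neighbouring cells, 8 of 9 were tested. In PEO-4 against T1074 5 were higher and 3 lower, beside 36.3% and 37.8% of all genes, and in SKOV-3 against T1074 2 were higher and 4 lower, beside 33.3% and 34.5%. EPHA1 had 22.8, 26.8, 23.4 and 22.9 CPM in PEO-4, 0.0585, 0.0769, 0.0856 and 0.0820 in SKOV-3, and 0.251, 0.137, 0.245 and 0.224 in T1074. It was found at more than 1 CPM in PEO-4 alone, with a log2 fold change of 6.83 ± 0.19 (adjusted p = 1.23e-12) against T1074 and 8.26 ± 0.20 (adjusted p = 7.03e-13) against SKOV-3, and SKOV-3 was below T1074 at these low levels (-1.43 ± 0.29, adjusted p = 0.00186). EPHA10, a member whose kinase domain lacks residues needed for activity, had 4.71, 3.11, 3.31 and 4.74 CPM in PEO-4, 29.6, 27.5, 26.7 and 30.1 in SKOV-3, and 0, 0.0916, 0 and 0.0497 in T1074. It was high in SKOV-3, lower in PEO-4 and near 0 in T1074, without overlap (log2 fold change 6.49 ± 0.38, adjusted p = 1.51e-09 in PEO-4 and 9.33 ± 0.35, adjusted p = 3.26e-11 in SKOV-3, each against T1074). EPHA10 had 6 counts over the T1074 libraries. Over the alternatives these values ranged from 6.04 to 7.436 in PEO-4 and from 8.893 to 10.29 in SKOV-3. EPHA2, the receptor of EFNA1 and the most abundant EPHA gene in each line by TPM, had 53.4, 93.6, 56.4 and 53.3 CPM in PEO-4, 160.2, 107, 120.5 and 109 in SKOV-3, and 125, 98.2, 294 and 179.7 in T1074. PEO-4 lay below T1074 (-1.44 ± 0.30, adjusted p = 4.91e-04), and T1074 spread widely, with replicate 3 on top. EPHA2 was also lower in PEO-4 than in SKOV-3 (log2 fold change -0.95 ± 0.29, adjusted p = 0.0088), a call lost with length-scaled TPM (adjusted p = 0.0559). EPHA3 had 2.31, 5.86, 10.1 and 2.01 CPM in PEO-4, 0.0585, 0, 0.0856 and 0.0410 in SKOV-3, and 0.753, 1.03, 0.245 and 0.870 in T1074. PEO-4 was above T1074 (2.80 ± 0.55, adjusted p = 3.14e-04) and SKOV-3 below it (-3.91 ± 0.81, adjusted p = 6.39e-04), and within PEO-4 replicates 2 and 3 were above replicates 1 and 4. EPHA4 had 12.5, 16.6, 16.6 and 13.7 CPM in PEO-4, 1.42, 1.61, 0.835 and 1.00 in SKOV-3, and 18.8, 15.3, 21.7 and 28.3 in T1074. SKOV-3 stood apart below (log2 fold change -4.10 ± 0.24, adjusted p = 2.55e-09 against T1074), and PEO-4 and T1074 overlapped (-0.50 ± 0.20, adjusted p = 0.0387). The EPHA4 call between PEO-4 and T1074 was lost under 14 of 21 alternatives, among them leaving out PEO-4 replicate 1, 2, 3 or 4, or T1074 replicate 3 or 4 (adjusted p = 0.0622 to 0.227). EPHA5 had 0.205, 0.577, 0.604 and 0.264 CPM in PEO-4, 0.0618, 0.0576, 0.0428 and 0.0205 in SKOV-3, and 4.75, 6.37, 3.86 and 5.72 in T1074, highest in T1074 without overlap (-3.63 ± 0.32, adjusted p = 1.33e-07 in PEO-4 and -6.75 ± 0.42, adjusted p = 4.58e-09 in SKOV-3, each against T1074). EPHA6 and EPHA7 stayed at or below 4.02 CPM. EPHA6 was higher in both carcinoma lines than in T1074 (log2 fold change 2.50 ± 0.26, adjusted p = 6.41e-07 in PEO-4 and 2.07 ± 0.26, adjusted p = 5.66e-06 in SKOV-3), and EPHA7 was higher in PEO-4 (3.45 ± 0.41, adjusted p = 3.10e-06 against T1074). Of the ligands, EFNA5 was highest in PEO-4 (195 ± 14.3 CPM, against 36.9 ± 3.50 in SKOV-3 and 13.1 ± 1.90 in T1074, log2 fold change 3.89 ± 0.13, adjusted p = 7.06e-12 in PEO-4 against T1074). EFNA1 and EFNA3 were higher in SKOV-3 than in T1074 (log2 fold change 1.12 ± 0.22, adjusted p = 4.44e-04 for EFNA1 and 2.57 ± 0.17, adjusted p = 6.89e-09 for EFNA3).

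EPHB receptors bind ephrin-B ligands and help set borders between cell layers. EPHB3 had 36.6, 54.0, 44.2 and 37.8 CPM in PEO-4, 1.75, 1.48, 0.792 and 0.738 in SKOV-3, and 0.401, 0.458, 0.269 and 0.373 in T1074. It was high in PEO-4 alone, with a log2 fold change of 6.84 ± 0.31 (adjusted p = 1.14e-10) against T1074 and 5.17 ± 0.26 (adjusted p = 4.19e-10) against SKOV-3, and SKOV-3 was above T1074 (1.67 ± 0.32, adjusted p = 3.13e-04). EPHB2 had 11.9, 10.9, 9.20 and 12.8 CPM in PEO-4, 102, 72.4, 88.4 and 57.5 in SKOV-3, and 37.8, 47.3, 37.8 and 55.6 in T1074. The order was SKOV-3, T1074, PEO-4, without overlap, and the log2 fold change was -2.0 ± 0.19 (adjusted p = 2.14e-07) in PEO-4 and 0.84 ± 0.18 (adjusted p = 7.23e-04) in SKOV-3, each against T1074. EPHB6, which lacks kinase activity, had 13.0, 12.9, 14.9 and 14.1 CPM in PEO-4, 2.90, 3.82, 2.38 and 2.36 in SKOV-3, and 0.502, 0.985, 1.37 and 1.49 in T1074, and both carcinoma lines were above T1074 (3.61 ± 0.26, adjusted p = 1.32e-08 in PEO-4 and 1.35 ± 0.25, adjusted p = 2.61e-04 in SKOV-3). EPHB1 stayed at or below 4.56 CPM, with means of 3.56 in PEO-4, 2.65 in SKOV-3 and 0.0472 in T1074 (log2 fold change 5.95 ± 0.45, adjusted p = 2.54e-08 in PEO-4 and 5.53 ± 0.45, adjusted p = 8.38e-08 in SKOV-3, each against T1074). EPHB1 had 8 counts over the T1074 libraries. Over the alternatives these values ranged from 4.328 to 6.764 in PEO-4 and from 3.998 to 6.354 in SKOV-3. EPHB4, the receptor of EFNB2, was at 103 ± 11.8 CPM in PEO-4, 65.7 ± 5.71 in SKOV-3 and 87.4 ± 6.65 in T1074. EPHB4 was lower in SKOV-3 than in T1074 (-0.41 ± 0.11, adjusted p = 0.00311), a call lost without a filter on low counts (adjusted p = 0.0601). Its ligand EFNB2 had 1.32 ± 0.410 CPM in PEO-4, 47.2 ± 2.2 in SKOV-3 and 15.4 ± 3.31 in T1074 (log2 fold change -3.53 ± 0.21, adjusted p = 1.83e-09 in PEO-4 and 1.62 ± 0.18, adjusted p = 1.93e-06 in SKOV-3, each against T1074). EFNB3 was nearly absent from SKOV-3 (0.322 ± 0.0670 CPM, against 23.0 ± 8.27 CPM in T1074, log2 fold change -6.15 ± 0.30, adjusted p = 4.37e-10).

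In the MET family, MET, the receptor of HGF, was high in every line, at 182 ± 23.4 CPM in PEO-4, 227 ± 24.5 in SKOV-3 and 131 ± 45.9 in T1074. It was higher in SKOV-3 than in T1074 (log2 fold change 0.79 ± 0.20, adjusted p = 0.00267) and in PEO-4 than in T1074 (0.47 ± 0.20, adjusted p = 0.042), where the libraries overlapped. By mean TPM, MET was lower in PEO-4 (8.95) than in T1074 (10.9). The MET call between PEO-4 and T1074 was lost under 7 of 21 alternatives, among them leaving out SKOV-3 replicate 2 or 3, or T1074 replicate 1, 2 or 4 (adjusted p = 0.054 to 0.131). MST1R, also called RON, the receptor of macrophage-stimulating protein, had 17.8, 27.0, 30.6 and 17.5 CPM in PEO-4, 23.5, 21.0, 20.6 and 17.6 in SKOV-3, and 0.351, 0.183, 0.196 and 0.398 in T1074. Both carcinoma lines were far above T1074, with a log2 fold change of 6.40 ± 0.28 (adjusted p = 1.05e-10) in PEO-4 and 6.23 ± 0.28 (adjusted p = 1.97e-10) in SKOV-3, and overlapped each other (0.17 ± 0.19, adjusted p = 0.443). HGF was near absent, with 0.0114 ± 0.0132 CPM in PEO-4, 0 in each SKOV-3 library and 0.836 ± 0.497 CPM in T1074, at least 13.8-fold lower in SKOV-3 than in T1074 against the floor. MST1, which encodes the ligand of MST1R, was present at 4.51 ± 0.625 CPM in PEO-4, 1.32 ± 0.0730 in SKOV-3 and 3.52 ± 0.747 in T1074.

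Of the FGF receptors, FGFR1 had 42.7, 37.4, 33.0 and 45.7 CPM in PEO-4, 117, 105.4, 113 and 93.7 in SKOV-3, and 104, 114, 131 and 126 in T1074. PEO-4 stood apart below (log2 fold change -1.58 ± 0.12, adjusted p = 3.28e-08 against T1074), and SKOV-3 and T1074 overlapped (-0.15 ± 0.12, adjusted p = 0.295). FGFR4, which takes part in FGF19 signalling in liver, had 9.14, 10.6, 8.49 and 9.23 CPM in PEO-4, 15.6, 16.6, 15.0 and 16.9 in SKOV-3, and 0.201, 0.389, 0.294 and 0.522 in T1074. Both carcinoma lines were above T1074, with a log2 fold change of 4.66 ± 0.20 (adjusted p = 7.58e-11) in PEO-4 and 5.43 ± 0.20 (adjusted p = 2.78e-11) in SKOV-3, and PEO-4 was below SKOV-3 (-0.77 ± 0.15, adjusted p = 2.94e-04). FGFR3 had 18.7 ± 8.82 CPM in PEO-4, 17.9 ± 1.80 in SKOV-3 and 11.5 ± 3.44 in T1074. It was higher in PEO-4 than in T1074 (log2 fold change 0.70 ± 0.29, adjusted p = 0.0427), where libraries overlapped. PEO-4 replicates 2 and 3 had 27.8 and 24.7 CPM and replicates 1 and 4 had 10.9 and 11.4 CPM. The FGFR3 call between PEO-4 and T1074 was lost under 9 of 21 alternatives, among them leaving out PEO-4 replicate 2 or 3, or SKOV-3 replicate 1, 2 or 3, or T1074 replicate 1 or 3 (adjusted p = 0.0524 to 0.109). FGF2, the basic FGF that binds IIIc forms, had 6.28 ± 0.677 CPM in PEO-4, 301 ± 26.5 in SKOV-3 and 162 ± 58.5 in T1074, and was lower in PEO-4 (log2 fold change -4.69 ± 0.22, adjusted p = 1.89e-10 against T1074) and higher in SKOV-3 (0.90 ± 0.19, adjusted p = 6.78e-04). FGF1 was found mainly in T1074 (0.150 ± 0.0710 CPM in PEO-4, 0.0462 ± 0.0319 in SKOV-3 and 15.5 ± 9.25 in T1074), and FGF18 mainly in SKOV-3 (0.378 ± 0.0354, 23.3 ± 1.95 and 0.895 ± 0.267 CPM in the same order).

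The lines differed in the form of FGFR3 as estimated per transcript. FGFR3-202, with the IIIb exon printed above, held 59.5%, 59.8%, 61.3% and 51.4% of the FGFR3 TPM in PEO-4, 14.1%, 16.2%, 21.9% and 8.53% in SKOV-3 and 0%, 0.360%, 5.62% and 1.75% in T1074. FGFR3-205, with the IIIc exon, held 2.7%, 2.49%, 1.26% and 0.935% in PEO-4, 46.6%, 48.1%, 40.4% and 48.1% in SKOV-3 and 72.5%, 50%, 49.4% and 73.7% in T1074. Each PEO-4 library was above each SKOV-3 and T1074 library for the IIIb form and below them for the IIIc form. RSEM divides reads between forms by estimate, and the share in expected counts gave the same order for the IIIb form, with means of 75.5% in PEO-4, 17.2% in SKOV-3 and 2.07% in T1074. In T1074 that form rested on 0 to 21.3 expected counts per library. The rest of the FGFR3 TPM lay in other transcripts, whose choice of exon was not examined. Of the 19 receptors with a mean of at least 1 TPM in 2 or more lines, the leading transcript differed between lines in FGFR1 and FGFR3 alone. For FGFR1 the leading shares were close, with FGFR1-201 at 18.8 ± 4.33% in PEO-4, 30.7 ± 4.55% in SKOV-3 and 22.6 ± 6.10% in T1074 (SD, n = 4 each), and FGFR1-204 at 15.1 ± 4.99%, 20.5 ± 2.94% and 27.3 ± 2.86% in the same order. Without SKOV-3 replicate 3 or without SKOV-3 replicate 4 the number was 3, with DDR2. INSR-202, the form without exon 11, held 16.8 ± 3.55% of INSR TPM in PEO-4, 15.0 ± 5.23% in SKOV-3 and 7.15 ± 4.0% in T1074. The PEO-4 libraries were above the T1074 libraries, and SKOV-3 overlapped both. No test was made on shares.

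**Figure D4:**
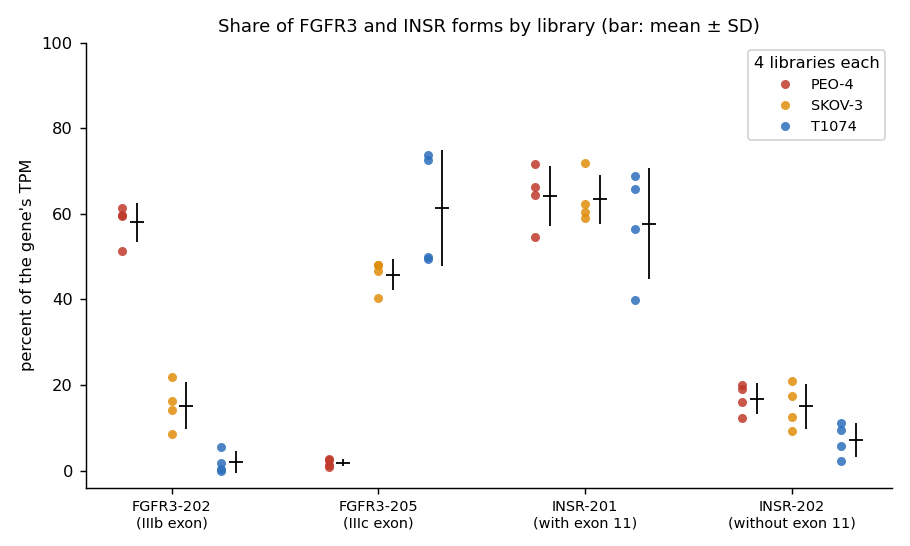
Share of the gene's TPM, in percent, held by FGFR3-202 (IIIb exon), FGFR3-205 (IIIc exon), INSR-201 (with exon 11) and INSR-202 (without it) in each library of PEO-4, SKOV-3 and T1074, with the mean and SD of 4 libraries. PEO-4 is highest for FGFR3-202 (51.4% to 61.3%) and lowest for FGFR3-205 (0.935% to 2.7%).

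The PDGF receptor family was low in the carcinoma lines. PDGFRA had 0.0586, 0.0314, 0.0570 and 0.0216 CPM in PEO-4, 1.15, 0.826, 0.854 and 0.881 in SKOV-3, and 11, 11.6, 3.28 and 18.1 in T1074. T1074 was above SKOV-3 and SKOV-3 above PEO-4, without overlap, and T1074 replicate 3 was the lowest of its line. The log2 fold change was -7.95 ± 0.59 (adjusted p = 1.91e-08) in PEO-4 and -3.56 ± 0.40 (adjusted p = 2.09e-06) in SKOV-3, each against T1074. PDGFRA had 7 counts over the PEO-4 libraries, and the PEO-4 value ranged from -11.77 to -7.589 over the alternatives. PDGFRB had 0.264, 0.362, 0.301 and 0.368 CPM in PEO-4, 0.254, 0.211, 0.128 and 0.184 in SKOV-3, and 19.0, 33.4, 22.7 and 46.6 in T1074, with T1074 far above both (-6.54 ± 0.32, adjusted p = 2.44e-10 in PEO-4 and -7.26 ± 0.33, adjusted p = 1.97e-10 in SKOV-3). The ligand PDGFA was low in PEO-4 (0.263 ± 0.0672 CPM, against 10.3 ± 1.07 in SKOV-3 and 9.77 ± 1.31 in T1074), and PDGFC was highest in SKOV-3 (20.2 ± 2.93 CPM in PEO-4, 85.1 ± 15.6 in SKOV-3 and 42.1 ± 8.12 in T1074). PDGFD was lower in SKOV-3 (0.565 ± 0.162 CPM) than in PEO-4 (6.30 ± 0.855 CPM) or T1074 (5.73 ± 2.03 CPM). KIT, CSF1R and FLT3, which are known from blood cells, stayed at or below 2.05 CPM in each library. KIT was lower in PEO-4 than in T1074 (log2 fold change -1.68 ± 0.43, adjusted p = 0.00283), and CSF1R passed the threshold only in PEO-4 against SKOV-3 (1.66 ± 0.48, adjusted p = 0.00597). FLT3 had 2 counts in all in T1074, and PEO-4 was 75.6-fold above T1074, with a 95% exact interval of 20.6 to 629. The FLT3 difference between SKOV-3 and T1074 (5.09-fold, interval 1.17 to 46.1) lost its call without SKOV-3 replicate 1 (adjusted p = 0.0771) or without T1074 replicate 3 (adjusted p = 0.065). CSF1, the ligand of CSF1R, had 2.96 ± 0.516 CPM in PEO-4, 95.7 ± 7.22 in SKOV-3 and 54.3 ± 10.9 in T1074, and KITLG, the ligand of KIT, had 0.967 ± 0.393, 6.23 ± 1.14 and 21.2 ± 4.40 CPM in the same order. Of the markers of blood cells and endothelium, PTPRC, CD3E, CDH5, CLDN5 and ESAM had means under 0.5 CPM in each line. CD68 and CD14, which are known from monocytes and macrophages, were higher in T1074, with means of 1.10 ± 0.361 CPM in PEO-4, 4.79 ± 2.36 in SKOV-3 and 10.4 ± 4.13 in T1074 for CD68, and 0.533 ± 0.0293, 0.0812 ± 0.0203 and 4.73 ± 2.52 CPM in the same order for CD14. The endothelial marker PECAM1 had 0.0718 ± 0.0473 CPM in PEO-4, 2.05 ± 0.688 in SKOV-3 and 0.255 ± 0.247 in T1074. Their part in the receptor differences was not tested.

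TEK, the angiopoietin receptor of endothelium, had 0.0293, 0, 0 and 0 CPM in PEO-4, 0.0390, 0, 0 and 0.0615 in SKOV-3, and 16.4, 34.5, 39.7 and 32.5 in T1074. It had 1 count over the 4 PEO-4 libraries and 5 over SKOV-3, against 4760 over T1074. The ratio of T1074 to PEO-4 was 5542, with a 95% exact interval of 994 to 218938, and the log2 fold change of SKOV-3 against T1074 was -10.10 ± 0.48 (adjusted p = 2.97e-10). TIE1, its partner, was also higher in T1074, with means of 0.275 CPM in PEO-4, 0.676 in SKOV-3 and 4.88 in T1074 (log2 fold change -4.12 ± 0.39, adjusted p = 2.49e-07 in PEO-4 and -2.84 ± 0.35, adjusted p = 4.98e-06 in SKOV-3, each against T1074). TIE1 was lower in PEO-4 than in SKOV-3 (-1.28 ± 0.40, adjusted p = 0.0096), a call lost with length-scaled TPM (adjusted p = 0.775). The endothelial markers PECAM1 (0.0497 to 0.612 CPM), VWF (0.251 to 0.504 CPM), CDH5, CLDN5 and ESAM were at or near 0 in T1074. ANGPT1, the activating ligand of TEK, had 0.434 ± 0.231 CPM in PEO-4, 0.203 ± 0.10 in SKOV-3 and 1.46 ± 0.632 in T1074, while ANGPT2 was found mainly in SKOV-3 (0.344 ± 0.0849, 16.9 ± 1.41 and 0.382 ± 0.184 CPM in the same order). Of the VEGF receptors, KDR was no higher than 0.0865 CPM in PEO-4, between 1.48 and 2.38 CPM in SKOV-3 and between 2.18 and 4.70 CPM in T1074, lower in PEO-4 (log2 fold change -6.59 ± 0.55, adjusted p = 6.51e-08 against T1074). KDR had 5 counts over the PEO-4 libraries, and this value ranged from -10.1 to -6.051 over the alternatives. FLT1 stayed at or below 0.761 CPM, and both its calls against T1074, 1.3 ± 0.50 (adjusted p = 0.0284) in PEO-4 and -1.50 ± 0.61 (adjusted p = 0.0426) in SKOV-3, were unsteady. The FLT1 call between PEO-4 and T1074 was lost under 5 of 20 alternatives, among them leaving out PEO-4 replicate 1, or T1074 replicate 1 or 4 (adjusted p = 0.0565 to 0.0669). The FLT1 call between SKOV-3 and T1074 was lost under 12 of 19 alternatives, among them leaving out PEO-4 replicate 1, 3 or 4, or SKOV-3 replicate 2, 3 or 4, or T1074 replicate 2, 3 or 4 (adjusted p = 0.0525 to 0.0933). PGF, a ligand of FLT1, was found mainly in T1074 (0.0632 ± 0.0244 CPM in PEO-4, 0.161 ± 0.0457 in SKOV-3 and 5.46 ± 1.25 in T1074). VEGFA, the ligand of FLT1 and KDR, was abundant in each line (135 ± 26.8 CPM in PEO-4, 318 ± 38.6 in SKOV-3 and 154 ± 22.7 in T1074). NRP1, a VEGF co-receptor, was highest in SKOV-3 (10.7 ± 3.02, 548 ± 35.5 and 71.6 ± 20.7 CPM in the same order), and NRP2 in PEO-4 (152 ± 18.9, 92.6 ± 6.49 and 31.3 ± 9.69 CPM).

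Among the receptors that bind WNT proteins, all 4 tested members were lower in PEO-4 than in T1074, as were 37.8% of all genes tested. ROR2 had 0.117, 0.217, 0.279 and 0.346 CPM in PEO-4, 0.117, 0.0576, 0.0856 and 0.266 in SKOV-3, and 29.9, 37.4, 28.0 and 33.1 in T1074. The highest value outside T1074 was 0.346 CPM (log2 fold change -7.01 ± 0.29, adjusted p = 6.05e-11 in PEO-4 and -7.91 ± 0.31, adjusted p = 4.78e-11 in SKOV-3, each against T1074). Its ligand WNT5A was also highest in T1074, with 2.40 ± 0.930 CPM in PEO-4, 5.56 ± 0.923 in SKOV-3 and 44.1 ± 12.2 in T1074 (log2 fold change -4.19 ± 0.28, adjusted p = 6.22e-09 in PEO-4 and -2.98 ± 0.26, adjusted p = 1.46e-07 in SKOV-3, each against T1074). ROR1 had 5.45, 7.33, 7.26 and 5.54 CPM in PEO-4, 21.1, 21.0, 19.4 and 18.8 in SKOV-3, and 10.5, 19.4, 10.4 and 19.9 in T1074, with PEO-4 apart below (log2 fold change -1.24 ± 0.21, adjusted p = 1.03e-04 against T1074) and the others overlapping (0.41 ± 0.21, adjusted p = 0.093). PTK7, a pseudokinase of cell polarity, had 76.3, 104, 87.1 and 74.0 CPM in PEO-4, 274, 242, 251 and 212 in SKOV-3, and 219, 254, 201 and 306 in T1074. SKOV-3 and T1074 overlapped fully (0.00 ± 0.15, adjusted p = 0.998), and PEO-4 was below T1074 (-1.52 ± 0.15, adjusted p = 4.27e-07). RYK was abundant in each line, at 91.5 ± 3.67 CPM in PEO-4, 149.7 ± 4.24 in SKOV-3 and 129 ± 10.1 in T1074, lower in PEO-4 (log2 fold change -0.50 ± 0.09, adjusted p = 1.18e-04 against T1074) and slightly higher in SKOV-3 (0.21 ± 0.09, adjusted p = 0.04). Between SKOV-3 and T1074 mean TPM ran the other way, at 18.5 and 23.1. The RYK call between SKOV-3 and T1074 was lost under 11 of 21 alternatives, among them leaving out SKOV-3 replicate 2 or 3, or T1074 replicate 1, 2 or 4 (adjusted p = 0.0509 to 0.0857). MUSK, the receptor of the neuromuscular junction, was not tested, and DOK7, its cytoplasmic activator, was high in the carcinoma lines, with 297 ± 31.7 CPM in PEO-4, 57.3 ± 9.11 in SKOV-3 and 0.133 ± 0.0270 in T1074 (log2 fold change 11.04 ± 0.21, adjusted p = 1.37e-13 in PEO-4 and 8.67 ± 0.20, adjusted p = 7.56e-13 in SKOV-3, each against T1074). AGRN, the ligand that activates MUSK through LRP4, was abundant in each line (556 ± 31.5 CPM in PEO-4, 798 ± 41.3 in SKOV-3 and 325 ± 78.4 in T1074).

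NTRK3, the receptor of neurotrophin 3, had 0.0293, 0.0483, 0.0645 and 0.0216 CPM in PEO-4, 0 in each library of SKOV-3, and 15.0, 6.09, 6.44 and 16.7 in T1074. SKOV-3 was at least 183-fold lower than T1074 against the floor, and NTRK3 had 7 counts over PEO-4 (log2 fold change -7.95 ± 0.54, adjusted p = 1.01e-07 in PEO-4 against T1074). PEO-4 and SKOV-3 were both at or under the floor, so no fold is given between them, and the call for a higher level in PEO-4 was lost under 8 of 20 alternatives, among them leaving out PEO-4 replicate 1, 2 or 3, or any SKOV-3 replicate. NTF3, its ligand, had a mean under 0.5 CPM in each line, and BDNF, a ligand of NTRK2, had 0.364 ± 0.0689 CPM in PEO-4, 27.3 ± 2.63 in SKOV-3 and 61.9 ± 28.3 in T1074 (log2 fold change -7.41 ± 0.33, adjusted p = 1.19e-10 in PEO-4 against T1074). RET, the receptor of the GDNF family, had 2.43, 2.32, 2.54 and 2.36 CPM in PEO-4, 10.3, 9.51, 10.4 and 8.28 in SKOV-3, and 1.2, 1.99, 1.32 and 1.99 in T1074. SKOV-3 was above both other lines (log2 fold change 2.54 ± 0.18, adjusted p = 2.23e-08 against T1074), and PEO-4 was above T1074 by 0.55 ± 0.18 (adjusted p = 0.0151), a call lost with scaling by library size only (adjusted p = 0.131). Mean TPM of RET was 0.185 in PEO-4 and 0.2 in T1074. RET binds its ligands through GFRA co-receptors, and these differed by line. GFRA1 had 0.328 ± 0.136 CPM in PEO-4, 8.2 ± 1.11 in SKOV-3 and 18.9 ± 5.04 in T1074. GFRA2, the co-receptor of neurturin, was found in PEO-4 alone at more than 0.1 CPM (77.9 ± 26.7, 0.0298 ± 0.0103 and 0.0185 ± 0.0235 CPM in the same order, log2 fold change 11.20 ± 0.39, adjusted p = 1.26e-11 in PEO-4 against SKOV-3). NRTN, which encodes neurturin, was highest in SKOV-3 (3.85 ± 0.497, 25.6 ± 4.02 and 0.482 ± 0.189 CPM). ALK, LTK and ROS1 were low. PTN, a ligand described for ALK, had 2.71 ± 1.61 CPM in PEO-4, 0.366 ± 0.253 in SKOV-3 and 21.3 ± 11.3 in T1074. LTK was highest in PEO-4 (mean 2.66 CPM, against 0.174 in SKOV-3 and 0.0600 in T1074), higher than in T1074 by 5.36 ± 0.39 (adjusted p = 1.64e-08). SKOV-3 was above T1074 by 1.46 ± 0.48 (adjusted p = 0.0143), a call lost with length-scaled TPM (adjusted p = 0.086). ROS1 was highest in SKOV-3 (mean 3.07 CPM, against 0.0738 in PEO-4 and 0.189 in T1074, log2 fold change 3.90 ± 0.59, adjusted p = 4.10e-05 in SKOV-3 against T1074). ALK stayed at or below 0.585 CPM, with a difference only in SKOV-3 against T1074 (0.72 ± 0.29, adjusted p = 0.0395). The ALK call between SKOV-3 and T1074 was lost under 11 of 20 alternatives, among them leaving out SKOV-3 replicate 1, 2 or 4, or T1074 replicate 1, 2 or 3 (adjusted p = 0.0549 to 0.117). LMTK2, a kinase of membrane traffic, had 53.8 ± 2.28 CPM in PEO-4, 38.1 ± 3.42 in SKOV-3 and 52.7 ± 7.67 in T1074 and was lower in SKOV-3 (-0.47 ± 0.11, adjusted p = 0.0017 against T1074).

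**Figure D5:**
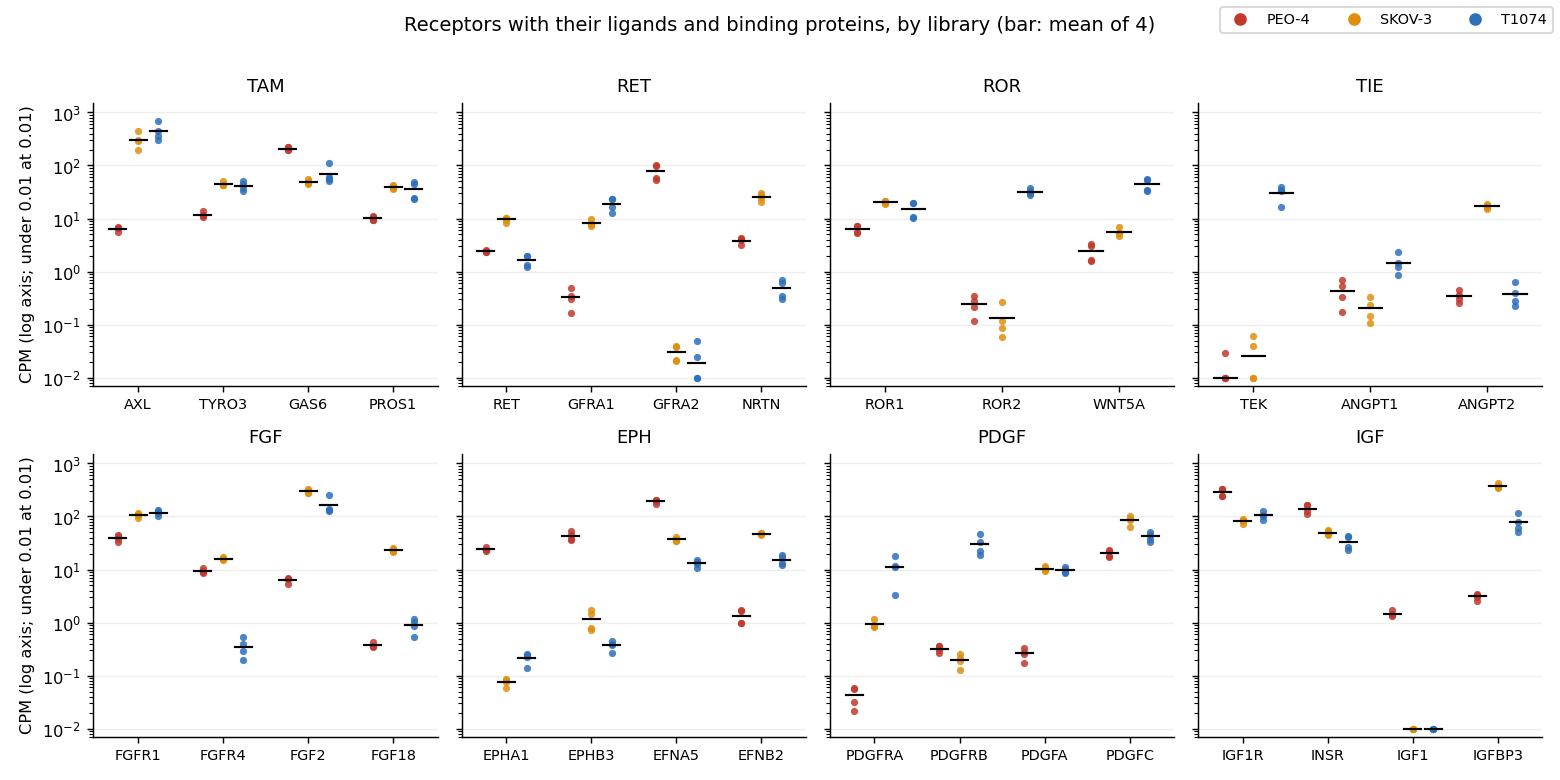
Level in CPM on a log axis of selected receptors beside their ligands, co-receptors or binding proteins, with 1 point per library, a bar at the mean of 4 libraries, and values under 0.01 CPM drawn at 0.01. AXL is lowest and GAS6 highest in PEO-4, TEK is high in T1074 and ANGPT2 in SKOV-3, and GFRA2 is high in PEO-4 alone.

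Ligands, co-receptors and adaptors were counted by lists of their own. Of 48 ligands tested out of 56, 13 were higher and 27 lower in PEO-4 than in T1074 (83.3%, beside 74.1% of all genes), 17 higher and 22 lower in SKOV-3 than in T1074 (81.2%, beside 67.8%), and 16 higher and 21 lower in PEO-4 than in SKOV-3 (77.1%, beside 75.2%). The median log2 fold change of the ligands in PEO-4 against T1074 was -0.97, beside -0.01 over all genes. Of 18 co-receptors, binding proteins and sheddases tested, 8 were higher and 7 lower in PEO-4 than in T1074 (83.3%, beside 74.1% of all genes), 9 and 5 in SKOV-3 than in T1074 (77.8%, beside 67.8%), and 7 and 9 in PEO-4 than in SKOV-3 (88.9%, beside 75.2%). Of 35 adaptors and negative regulators tested, 11 were higher and 18 lower in PEO-4 than in T1074 (82.9%, beside 74.1%), 12 and 14 in SKOV-3 than in T1074 (74.3%, beside 67.8%), and 10 and 22 in PEO-4 than in SKOV-3 (91.4%, beside 75.2%). Their median absolute log2 fold change (0.898, 0.507 and 0.919 in the same order of comparisons) was below that of the receptors. The central adaptor GRB2 had 127 ± 3.33 CPM in PEO-4, 54.1 ± 2.63 in SKOV-3 and 68.7 ± 7.49 in T1074. SHC2 was at 0 in each PEO-4 library, at least 44.4-fold lower than in T1074 and at least 262-fold lower than in SKOV-3. PLCG2, a phospholipase known from blood cells, was high in SKOV-3 (5.72 ± 0.652 CPM in PEO-4, 137 ± 10.2 in SKOV-3 and 3.42 ± 0.943 in T1074, log2 fold change 5.32 ± 0.20, adjusted p = 2.46e-11 in SKOV-3 against T1074). SHC3 was high in T1074 (0.398 ± 0.157, 0.171 ± 0.0486 and 17.8 ± 10.1 CPM in the same order). GRB7, an adaptor gene that lies beside ERBB2, was higher in both carcinoma lines (67.2 ± 2.80 CPM in PEO-4, 41.2 ± 9.73 in SKOV-3 and 1.69 ± 0.553 in T1074, log2 fold change 5.26 ± 0.23, adjusted p = 1.06e-10 in PEO-4 and 4.56 ± 0.23, adjusted p = 5.00e-10 in SKOV-3, each against T1074). GAB2 (2.73 ± 0.14, adjusted p = 4.79e-10) and IRS2 (2.13 ± 0.17, adjusted p = 4.87e-08), which dock on activated receptors, were higher in PEO-4 than in T1074. CBLC, the ubiquitin ligase of the CBL family that is known from epithelium, had 21.4 ± 2.83 CPM in PEO-4 and 0.0119 ± 0.0138 CPM in T1074. It was at 0 in SKOV-3, so that PEO-4 was higher by at least 354-fold. PTPRJ, a phosphatase of several of these receptors, was lower in PEO-4 than in T1074 (log2 fold change -2.12 ± 0.20, adjusted p = 2.37e-07) and higher in SKOV-3 (0.90 ± 0.19, adjusted p = 7.66e-04). Among the other adaptors and regulators past the threshold with at least a 2-fold difference were SH2B3 in PEO-4 against T1074 (-2.09 ± 0.18, adjusted p = 7.36e-08), SH2B2, LRIG1 and CRK in SKOV-3 against T1074 (2.32 ± 0.20, adjusted p = 1.06e-07 for SH2B2, -1.18 ± 0.16, adjusted p = 1.33e-05 for LRIG1 and -1.05 ± 0.12, adjusted p = 1.79e-06 for CRK), and GRB10 in PEO-4 against SKOV-3 (-1.64 ± 0.12, adjusted p = 1.71e-08). DOK1 was lower in SKOV-3 than in T1074 (-3.56 ± 0.17, adjusted p = 3.88e-10).

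Promoter windows, the 250 bases before each RefSeq start site, were found for 45 of the 49 genes, 72 windows in all. GGGCGG, the GC box that SP factors bind, was present on either strand in 65.3% of the receptors' windows and in 42.6% of all 35116 windows. The median number of CpG dinucleotides was 15 and 11. CAGGTG, searched on both strands, was present in 20.8% of the receptors' windows and 17.5% of all windows. It was found in 6 of 21 windows of the genes called higher in PEO-4 than in both other lines. It lay in windows of DDR1, EPHA1 (printed above), EPHA7 and FLT3, and in none of the other genes of that group. For SKOV-3 it was in 4 of 8 such windows, and for T1074 in 0 of 15, TEK among them. AXL, which had its highest mean in T1074 but was not called against SKOV-3, held CAGGTG in a window. Some genes count more than once, such as DDR1 for PEO-4 and EPHB2 for SKOV-3. The EPHB2 windows overlap and share their site. TGANTCA, the motif of AP-1 factors, was present in 5.56% of the receptors' windows and 6.57% of all windows. Windows of 1 gene can overlap, and these are descriptions of letters in a window, with no test.

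The library kit keeps strand, but the strand setting of the counting is not given in the sources used here. Without strand, reads from a gene and from a partner on the other strand cannot be told apart. Of the 49 genes, 26 overlap a gene on the opposite strand, and in 8 of them that gene had at least 10% of the receptor's CPM in a line. Among these 8 were EPHA1, EPHB4, EPHB1, ALK, CSF1R, EPHA5 and FGFR1, whose partners had at least 1 CPM in a line. EPHA1 overlaps ZYX, which had 31.8 CPM in PEO-4, 31.1 in SKOV-3 and 74.3 in T1074. SLC12A9, the partner of EPHB4, had 42.0, 7.16 and 18.5 CPM in the same order. Calls that ran the same way as the partner's mean level included those of EPHB4, which was higher in PEO-4 than in SKOV-3 and lower in SKOV-3 than in T1074, of EPHA1 in SKOV-3 against T1074, of EPHB1 in PEO-4 against T1074, where a partner lncRNA had 2.22 and 0.00573 CPM, of ALK in SKOV-3 against T1074, where CLIP4 had 151 and 54.2 CPM, and of CSF1R in PEO-4 against SKOV-3, where the pseudogene RPL7P1 had 12.2 and 7.38 CPM. FGFR1 and its partner LETM2 (4.598 CPM in PEO-4, 5.82 in SKOV-3 and 6.37 in T1074) were both lowest in PEO-4. The part of the partners in these calls was not tested.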

How the data were processed

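RNA of 12 libraries, 4 from each of PEO-4, SKOV-3 and T1074, was analysed from gene and transcript tables. The submitters' notes and the study name bcl2fastq 2.20.0.422 for demultiplexing, Trimmomatic 0.39 for trimming, STAR 2.7.3a for alignment to hg38 and RSEM 1.3.1 for quantification on GENCODE 39, and the authors deposited expected counts and TPM for each transcript, which are estimates that divide reads between forms. Expected counts were summed by gene and rounded to whole numbers. Of 61533 gene IDs, 61369 matched GENCODE 44, used for names and positions, and 164 did not.

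Differences were tested in 1 fit of the 12 libraries with edgeR 4.0.16 (R 4.3.3), using its filter on low counts, TMM factors and the quasi-likelihood test, with Benjamini-Hochberg adjustment over 19898 genes and a threshold of 0.05. The standard error is the log2 fold change divided by the square root of its F value. CPM uses TMM factors. Where a line was at 0 in all libraries, a fold is a bound against 3 counts per library. With 1 to 3 counts, the ratio is given with a 95% exact interval. The script was tested on simulated data. Total expected counts of 19780836 to 55739060 per library set the precision of low genes.

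Receptors past the threshold with a log2 fold change of at least 1 in size and a mean of at least 5 CPM in a line are given in every library, others by range or mean. From each other list, up to 4 genes per direction and comparison that met the same limits are named, with the ligands and co-receptors of described receptors. Members and lists were chosen with earlier results of these data known. Alternatives were 22 settings, 12 of them leaving out 1 library, and included DESeq2 1.42.0. Promoter sequences are from RefSeq, and exons from hg38. Protein sequences were not used here.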

Additional observations from a re-analysis of the deposited data

Results flagged for a closer look

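Among 90 groups of 4 libraries examined for receptors with a mean of at least 1 CPM, 5 held a library far from the other 3 by Dixon's criterion, which chance meets in about 1 of 20 groups. KIT had 1.94 CPM in T1074 replicate 4 and 0.664 to 0.802 CPM in the others. EPHA1 had 26.83 CPM in PEO-4 replicate 2 and 22.8 to 23.4 CPM in the others, EPHA2 had 93.61 CPM in PEO-4 replicate 2 and 53.3 to 56.4 CPM in the others, and DDR1 had 362 CPM in PEO-4 replicate 2 and 296 to 299 CPM in the others. TYRO3 had 50.33 CPM in SKOV-3 replicate 1 and 42.4 to 43.0 CPM in the others. Leaving out PEO-4 replicate 2 ended no call of EPHA1, EPHA2 or DDR1.

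For 8 receptors the carcinoma lines differed from T1074 in opposite directions, each past the threshold, and PEO-4 against SKOV-3, which tests the difference of the pair of log2 fold changes (edgeR), was also past it. The difference, PEO-4 minus SKOV-3, was 8.26 for EPHA1 (6.83 in PEO-4 and -1.43 in SKOV-3), 6.72 for EPHA3 (2.80 and -3.91), 2.80 for FLT1 (1.3 and -1.5), 2.72 for DDR1 (1.87 and -0.85), 2.01 for MERTK (0.52 and -1.48) and 1.78 for IGF1R (1.44 and -0.34). It was -2.84 for EPHB2 (-2.0 in PEO-4 and 0.84 in SKOV-3) and -0.71 for RYK (-0.50 and 0.21). Both comparisons use the same 4 T1074 libraries. These 8 are 17.4% of the receptors tested, beside 14.0% of all genes tested with such a pair of calls. Both opposite calls of FLT1 and 1 of those of IGF1R, MERTK and RYK were lost under some alternatives, as given beside those genes.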

How the results depend on the processing

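Of the 22 alternatives, up to 21 were fitted anew for a given receptor difference. The cut at a 2-fold difference was applied to counts of genes alone. No called receptor difference changed direction under these new fits. Of 109 calls, 17 were lost under at least 1 of them. Of 29 differences not called, 18 passed the threshold under at least 1, among them EPHB4 in PEO-4 against T1074 under 10 of 21 and FGFR3 in SKOV-3 against T1074 under 9 of 21. The counts of receptors called stayed within 1.5 times: leaving out 1 library gave 17 to 21 higher and 18 to 19 lower in PEO-4 against T1074, 15 to 19 and 15 to 19 in SKOV-3 against T1074, and 17 to 19 and 18 to 19 in PEO-4 against SKOV-3. Requiring in addition at least a 2-fold difference left 4815 of all genes lower in PEO-4 against T1074, 3897 higher and 4368 lower in SKOV-3 against T1074, and 4689 lower in PEO-4 against SKOV-3. It left adaptors and regulators at 7 higher and 10 lower in PEO-4 against T1074, 7 higher and 5 lower in SKOV-3 against T1074, and 9 lower in PEO-4 against SKOV-3, and co-receptors at 5 higher in PEO-4 against T1074. Without a filter 8 adaptors and regulators were lower in SKOV-3 against T1074. Scaling by library size only moved the median log2 fold change of all genes to -0.17 in PEO-4 against T1074, -0.229 in SKOV-3 against T1074 and 0.091 in PEO-4 against SKOV-3. Differences that missed the threshold changed sign as follows. With library size only, ALK was at -0.072 and LMTK2 at -0.14 in PEO-4 against T1074, and TYRO3 at -0.11 in SKOV-3 against T1074. PTK7 in SKOV-3 against T1074 was at 0.045 with size factors of DESeq2 and with its test, and at 0.095 without a filter. Leaving out 1 library gave ranges of -0.022 to 0.33 for ALK in PEO-4 against T1074, -0.49 to 0.13 for EPHA7 in SKOV-3 against T1074, -0.14 to 0.30 for FGFR3 in PEO-4 against SKOV-3, -0.58 to 0.022 for FLT4 in PEO-4 against SKOV-3, -0.029 to 0.17 for LMTK2 in PEO-4 against T1074, -0.075 to 0.13 for PTK7 in SKOV-3 against T1074 and -1.86 to 0.55 for ROS1 in PEO-4 against T1074. The replicate numbers did not pair the libraries: deviations of same-numbered libraries correlated at -0.0793 to 0.0692, and 0, 0 and 2 of 4 libraries correlated best with their own number in the 3 comparisons. With the number as a replicate block, 18 receptors were higher and 19 lower in PEO-4 against T1074, 15 and 15 in SKOV-3 against T1074, and 18 and 18 in PEO-4 against SKOV-3, FGFR3 in PEO-4 against SKOV-3 was at -0.019 and PTK7 in SKOV-3 against T1074 at 0.0053. Receptors under about 1 CPM rest on few counts, and T1074 replicate 1 was the shallowest library.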
